A study of Homo sapiens with 2 samples.

Results

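The 636 peaks of the transcription factor ZFX on chromosome 14 are described here along the long arm, as taken from a list of 14471 peaks. They are all the peaks that the list places on this chromosome, 4.39% of the whole list and 4.45% of the 14279 peaks on autosomes. The peaks came from chromatin immunoprecipitation and sequencing (ChIP-seq) with a rabbit antibody against ZFX in DAOY, a human cell line established from a medulloblastoma, a tumour of the cerebellum. The study holds 2 samples with 1 library each, the ZFX precipitation and sheared chromatin without precipitation as input, and peaks were analysed for the ZFX precipitation only. Both samples are labelled as DAOY cells, and the labels give no treatment or genetic change. A single library allows neither a replicate check nor a test, and the sources used here give no read depth. Intervals below cover counting error only, and they treat peaks as independent, which close peaks are not.

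ZFX is a zinc finger protein encoded on the X chromosome that binds DNA and is known mainly as an activator of transcription, and many of its known sites lie near the starts of active genes. A ChIP-seq peak is a stretch where the precipitated DNA was enriched, so a dense part of a chromosome is one where many separate stretches passed the caller. Chromosome 14 is acrocentric: its short arm is small and made largely of repeats, and its genes lie on the long arm. Near its inner end the long arm is known to carry the T cell receptor alpha and delta locus, and near its outer end the immunoglobulin heavy chain locus and the imprinted cluster of DLK1 and MEG3. FOS, an immediate early gene, is also known to lie on this arm. Gene positions on hg19 were not used here, so no peak is assigned to a gene.

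Positions are printed on hg19, counted from 1. No peak of chromosome 14 had its midpoint below 19 Mb. The first peak started at 20800994 and the last ended at 106938785, and all 636 peaks lay in the 9 steps of 10 Mb cut from 19 Mb. Steps are numbered from the inner to the outer end of the arm. Step 1 covered 19 to 29 Mb, step 2 covered 29 to 39 Mb, and so on to step 9, which began at 99 Mb and was measured over 7.94 Mb to the end of the last peak.

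Peaks were denser on chromosome 14 than on most autosomes, and step 6 and step 9 held most of the surplus. Chromosome 14 carried 7.38 peaks per Mb (exact Poisson 95% interval 6.82 to 7.98) over the 86.1 Mb between its outermost peaks. The other autosomes together carried 5.06 per Mb (4.98 to 5.15). The ratio was 1.46 (1.35 to 1.58, with the value of the other autosomes held fixed). Spans of the other autosomes were not limited to a single arm and include stretches without a peak of up to 21.3 Mb, on chromosome 1. With the longest stretch left out of every autosome the ratio was also 1.46. This took 5.19 Mb from chromosome 14 as well, so it does not show the effect of the other autosomes' stretches alone. The ratio with only those left out was not computed. Chromosome 14 ranked 4 of 22 autosomes, after chromosomes 19, 17 and 22, and the 21 other autosomes ran from 1.94 to 16.6 peaks per Mb with a median of 5.17. At the density of the other autosomes its span would hold 436 peaks, 200 fewer than were listed. Peaks covered 4.73 kb per Mb on chromosome 14 and 2.87 kb per Mb on the other autosomes.

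The 9 steps were far from even. Step 1 had 77 peaks, or 7.70 per Mb (exact Poisson 95% interval 6.08 to 9.62). Step 2 had 57 peaks, or 5.70 per Mb (4.32 to 7.39). Step 3 had 19 peaks, or 1.90 per Mb (1.14 to 2.97), which put it far under the mean of the other autosomes. Step 4 had 81 peaks, or 8.10 per Mb (6.43 to 10.1). Step 5 had 67 peaks, or 6.70 per Mb (5.19 to 8.51). The inner part of the arm thus held 2 stretches of like density on either side of a thin one, with the intervals of steps 1, 2, 4 and 5 overlapping. Step 6 had 129 peaks, or 12.9 per Mb (10.8 to 15.3). Step 7 had 11 peaks, or 1.10 per Mb (0.549 to 1.97), the fewest on the arm. Step 8 had 66 peaks, or 6.60 per Mb (5.10 to 8.40). Step 9 had 129 peaks again, but over a shorter length, which gave 16.2 per Mb (13.6 to 19.3). The densest and the thinnest of the full 10 Mb steps lay side by side, and the intervals of steps 6 and 9 overlapped each other and no other step's.

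**Figure D1:**
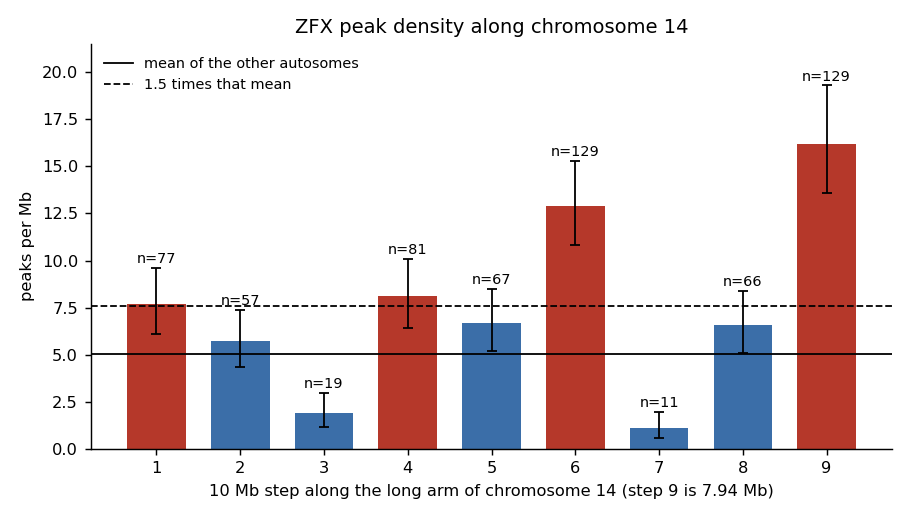
Bars give ZFX peaks per Mb in the 9 steps along the long arm of chromosome 14, with exact Poisson 95% intervals and the number of peaks; red bars lie above 1.5 times the mean of the other autosomes and blue bars do not. Step 6 with 12.9 and step 9 with 16.2 peaks per Mb stand above the rest, and steps 3 and 7 stay under 2 peaks per Mb.

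A step was called dense when it passed 1.5 times the mean density of the other autosomes, that is 7.59 peaks per Mb. On chromosome 14 steps 1, 4, 6 and 9 passed, 4 of 9 or 44.4%, against 51 of 269 steps on the other autosomes, a difference that was not tested. Over all 278 steps of the 22 autosomes the share that passed was 19.8%. Step 1 was just inside the limit at 1.52 times the mean and did not pass when close peaks were joined. It was measured from 19 Mb, 1.80 Mb below the first peak, and it also passed when measured from that peak. Step 5 was the nearest outside the limit at 1.32 times. Step 6 stood at 2.55 times and step 9 at 3.21 times the mean, and they were the only steps of the arm to pass at 2 times the mean, where 11.9% of the 278 steps passed. Only 8 of the 269 other steps were denser than step 9, and 17 were denser than step 6. The densest of them, 24.4 peaks per Mb, lay on chromosome 19. The calls of steps 1 and 4 depended on where the steps begin: with steps cut from 14 Mb no step overlapping either of them passed. The first of that cut, 14 to 24 Mb, includes the part below 19 Mb, where no peak lies, which lowers its density. With steps cut from 20 Mb, 20 to 30 Mb passed at 1.62 times and 50 to 60 Mb at 1.74 times the mean. At the other end, 7.81% of the 269 other steps were thinner than step 7 and 20.1% were thinner than step 3.

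**Figure D2:**
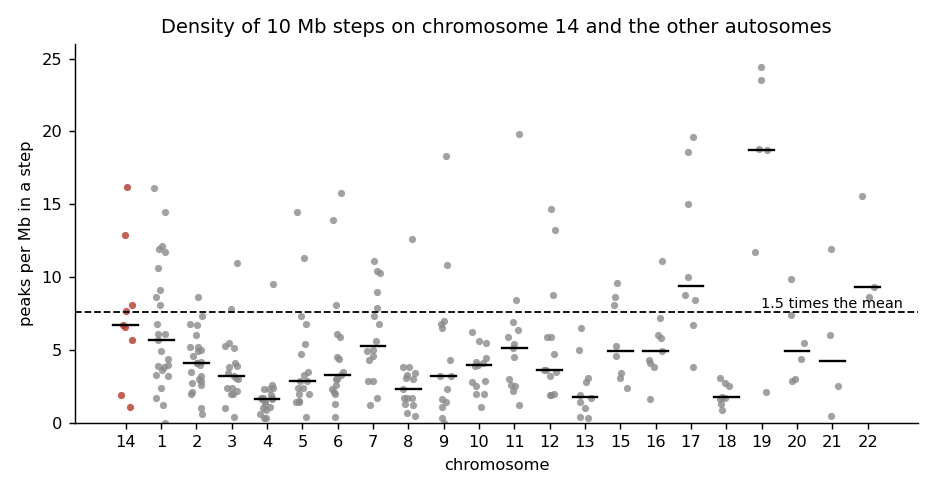
Each point is a 10 Mb step, with chromosome 14 at the left in red and the other autosomes in grey; the vertical axis gives peaks per Mb, the short bars are medians over steps and the dashed line is 1.5 times the mean of the other autosomes. The steps of chromosome 14 run from 1.10 to 16.2 peaks per Mb, within the range of 0 to 24.4 of the other autosomes.

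The surplus over the mean of the other autosomes was counted step by step. Step 9 held 88.8 peaks more than its length would carry at that mean, and step 6 held 78.4 more. Together these 2 steps make up 20.4% of the length and 40.6% of the peaks, and their surplus of 167 compares with a net 191 for all 9 steps. Step 4 added 30.4 and step 1 added 26.4, so that the 4 dense steps had 224 in all. Steps 5, 8 and 2 lay slightly above the mean, by 16.4, 15.4 and 6.37 peaks. Step 7 was 39.6 peaks short of it and step 3 was 31.6 short. The 7 steps other than 6 and 9 had 5.40 peaks per Mb, 1.07 times the mean of the other autosomes.

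Inside the dense steps, peaks gathered in a few windows of 1 Mb. Of the 88 windows from 19 Mb to the last peak, 10 held 20 peaks or more, and all 10 lay in the 4 dense steps. Rich windows add to the counts that make a step dense, so their place was partly given by the definition. These 10 windows (11.4%) carried 260 peaks, 40.9% of the chromosome. On the other autosomes 4.39% of windows were as rich and carried 23.2% of the peaks. No peak fell in 19 of the 88 windows (21.6%), against 24.7% of windows on the other autosomes. The latter windows include longer stretches without a peak, up to 21.3 Mb on chromosome 1, against 5.19 Mb on chromosome 14. The median window of chromosome 14 held 5 peaks.

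In step 9 the richest window ran from 105 to 106 Mb and held 35 peaks, the most on the chromosome, with a median score of 172. On the other autosomes 13 windows held 35 peaks or more. The next in step 9 was 103 to 104 Mb with 25 peaks and a median score of 76.8. A neighbour within 1 kb was found for 14 of the 35 peaks of the first window (40.0%) and for 13 of the 25 of the second (52.0%). Without both windows step 9 still had 11.6 peaks per Mb, 2.29 times the mean of the other autosomes. In step 6 the richest windows were 75 to 76 Mb with 28 peaks and 69 to 70 Mb with 27, and their median scores of 97.3 and 79.6 were below that of the step. Without both, step 6 had 9.25 peaks per Mb, 1.83 times the mean. Without the 3 richest windows step 9 stood at 1.80 times and step 6 at 1.44 times the mean, so step 6 then no longer passed 1.5 times.

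Step 1 was the most concentrated of the dense steps. It had 5 windows with no peak, and 3 windows held 73 of its 77 peaks (94.8%), namely 21 to 22 Mb with 26, 23 to 24 Mb with 25 and 24 to 25 Mb with 22. Without the richest of them the step fell to 1.12 times the mean of the other autosomes, and without the richest pair to 0.642 times. In step 4 the window 50 to 51 Mb held 25 of 81 peaks (30.9%), and the next richest was 55 to 56 Mb with 13. Together these windows held 46.9% of its peaks, a share like the 46.5% and 42.6% in the 2 richest windows of steps 9 and 6. Without the first the step stood at 1.23 times that mean, and without both at 1.06 times. These ratios keep the mean of the other autosomes whole. When the richest window was left out of every step of all autosomes, steps 4, 6 and 9 still passed 1.5 times and step 1 did not.

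Long stretches without any peak lay in the thin steps and beside the rich windows. The longest ran for 5.19 Mb within step 7, from 82000256 to 87191732, and was bordered by weak peaks with scores of 73.7 and 50.01. The next covered 4.09 Mb from 45963417 to 50052419, across the end of step 3, and on its outer side the rich window at 50 to 51 Mb began at once. Another of 3.40 Mb lay inside step 1, from 24911964 to 28314322, directly after its rich windows. The next stretch, 3.14 Mb, ran from the outer end of step 6 into step 7. On the other autosomes 28 stretches were longer than the first of these and 76 longer than the one inside step 1. Those counts were not limited to a single arm, and the longest stretch was 21.3 Mb, on chromosome 1.

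The strength of a peak was read from the authors' score, which has no stated unit, starts at 50 and is used here only to rank peaks within the list. The median score on chromosome 14 was 122.0 (order-statistic 95% interval 107.5 to 136.4), against 108.9 (106.3 to 110.7) on the other autosomes. It was the highest median of the 22 autosomes, the others running from 94.0 to 117.7, but its interval reached below several of them. Peaks above the median of the whole list made up 53.6% (exact Clopper-Pearson 95% interval 49.7% to 57.5%), against 49.9% (49.1% to 50.8%) on the other autosomes. Scores of 1000 or more were reached by 20 of the 636 peaks (3.14%) and by 279 of 13643 (2.05%) on the other autosomes. Most scores of the 2 sets overlapped, with quartiles of 67.7 and 252.2 on chromosome 14 and of 65.5 and 222.0 on the other autosomes.

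Along the arm the 2 densest steps were not the ones with the highest scores. Median scores were 143.2, 163.1, 149.3 and 144.3 in steps 1 to 4, all above the median of the chromosome. Steps 5 to 9 had median scores of 88.3, 110.0, 124.8, 115.9 and 106.3. Pooled, steps 1 to 4 had a median of 149.0 (126.1 to 171.4) over 234 peaks, and steps 5 to 9 had 106.4 (93.6 to 124.8) over 402 peaks. The division at step 4 was chosen after the step values were seen, so the pooled intervals give it no support, and the difference was not tested. Intervals of single steps were wide, with 111.1 to 218.8 in step 2 and 84.4 to 155.3 in step 9. Those of steps 6 and 9 overlapped the intervals of each of steps 1 to 4, and the median of step 7 was also above that of the chromosome. Peaks scoring under 100 made up 48.0% of steps 5 to 9 and 36.3% of steps 1 to 4. Step 5 was the weakest, with 55.2% of its 67 peaks under 100 and no score of 1000 or more. Steps 6 and 9 each had 5 peaks at 1000 or more, and steps 4 and 8 had 3 each.

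**Figure D3:**
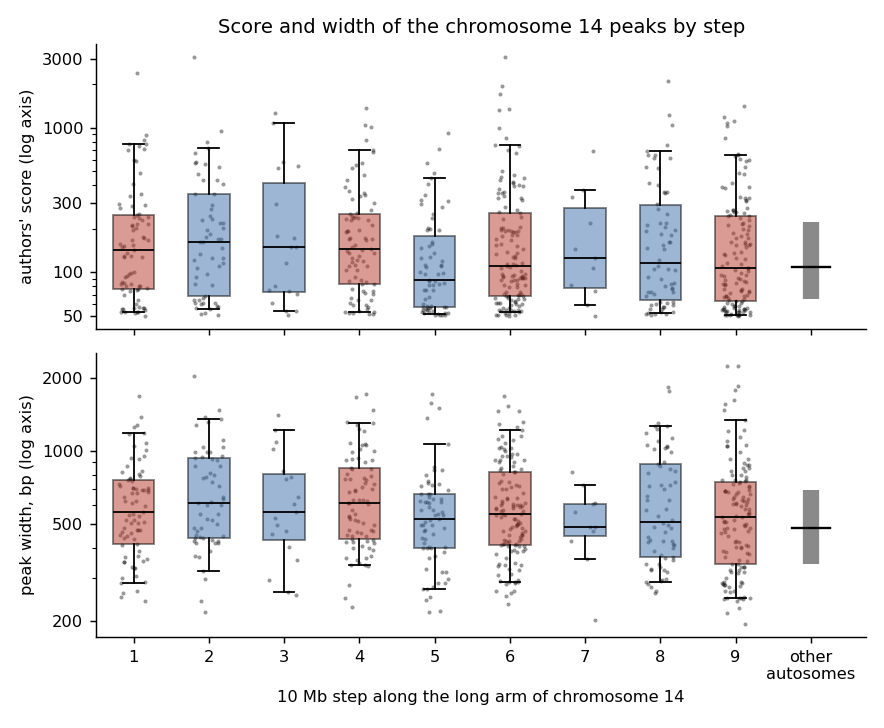
Points are single peaks of chromosome 14 by step, with the authors' score above and the peak width in bp below, both on log axes; boxes span the 25th to 75th percentile with the median and whiskers the 5th to 95th percentile, red for the dense steps, and the grey bar gives the same quartiles and median for the other autosomes. Median scores lie between 143.2 and 163.1 in steps 1 to 4 and between 88.3 and 124.8 in steps 5 to 9, with wide overlap of single peaks.

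When the whole list was cut into 4 score classes of equal size, the density ratio of chromosome 14 was above 1 in each and highest in the strongest class. The density ratio of chromosome 14 to the other autosomes was 1.37 (exact Poisson 95% interval 1.16 to 1.61) in the lowest class, which ended at a score of 65.4. It was 1.33 (1.12 to 1.57) in class 2, 1.44 (1.22 to 1.68) in class 3 and 1.69 (1.46 to 1.96) in the highest class, above a score of 222.6. The intervals of the 4 classes overlapped. The steps differed in this respect. In step 4 the 2 lower classes stood at 1.11 and 1.10 times the other autosomes and the 2 higher at 1.98 and 2.22 times. Step 1 showed the same order, from 1.19 to 1.90 times. In step 9 the lowest class stood at 3.49 times and the highest at 3.60 times, so weak and strong peaks were in surplus alike. In step 6 the classes stood at 2.14, 2.91, 2.37 and 2.77 times with no order. Step 5 ran the other way, with 1.74 times in the lowest class and 1.03 times in the highest. Step counts per class were 13 to 37 in these 5 steps, so single ratios are imprecise.

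**Figure D4:**
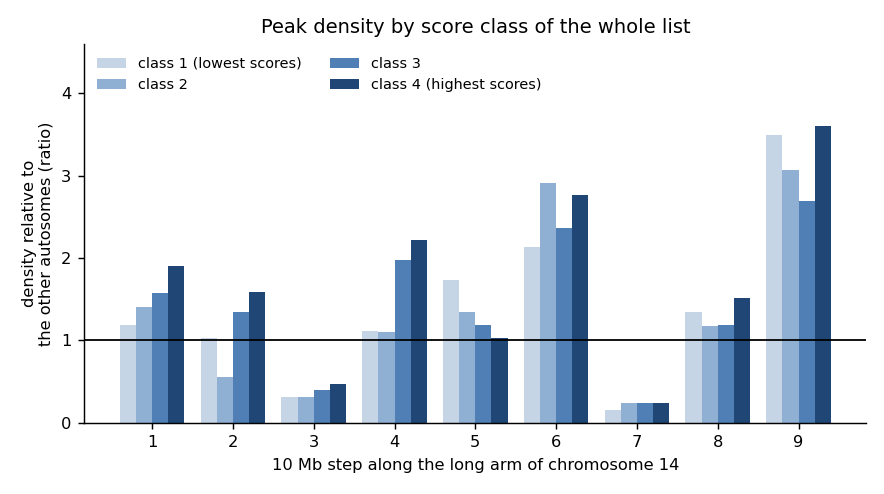
Bars give, for each step of chromosome 14, peak density as a ratio to the other autosomes within 4 score classes of the whole list, from the lowest scores in pale to the highest in dark blue; the line marks equal density. All classes lie above 2 times in steps 6 and 9, whereas in step 4 only the highest class does.

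The strongest peaks were found in dense and in other steps. Of the 20 peaks at 1000 or more, 14 lay in the 4 dense steps, which held 65.4% of all peaks of the arm. The score 3100, which 28 peaks of the list share and 3 exceed, was reached on chromosome 14 by 2 peaks. One lay in step 2, at 31675743 to 31677786, and was 2044 bp wide, and its nearest neighbour was 180 kb away. The other lay in step 6, at 69618292 to 69619292, was 1001 bp wide and had a neighbour 592 bp away. Step 1 followed with a peak at 24898731 to 24900014 that scored 2381. Its nearest neighbour, 11.4 kb away, borders the 3.40 Mb stretch without peaks. Step 8 had a peak at 95622714 to 95624547 with a score of 2101 and a width of 1834 bp, 156 kb from the next one. In step 6 the second peak, at 75593146 to 75594298, scored 1959. Peaks with and without near neighbours thus both occurred at the top.

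The leading peaks of the other steps were weaker. Step 9, the densest, had its strongest peak at 105766521 to 105767739 with a score of 1417, followed by 105331486 to 105332967 with 1187. Step 4 was led by 53173530 to 53174590 with 1366 and 50998474 to 50999378 with 1043. In the thin step 3 both leading peaks passed 1000, namely 39643949 to 39645167 with 1273 and 45552980 to 45554005 with 1088. Step 8 had a second peak at 91975984 to 91977755 with 1233. In step 5 the highest score was 926, at 60558445 to 60559137, and the next was 712, at 60715326 to 60716830. The thin step 7 reached only 693, at 88237477 to 88237946, and then 369, at 88459286 to 88460010. In steps 1 and 2 the second peaks scored 897, at 21851294 to 21852301, and 946, at 35342685 to 35344045. None of these peaks was screened for repeated sequence.

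Peaks of chromosome 14 were wide for this list. The median width was 551 bp (order-statistic 95% interval 520 to 594), against 481 bp (475 to 486) on the other autosomes, whose medians ran from 411 to 584 bp. Only chromosomes 7 and 9 had a higher median. Since wider peaks had higher scores in this list, widths were also compared within the 4 score classes. From the lowest to the highest class the median width was 334, 450, 616 and 925 bp on chromosome 14, and 298, 405, 568 and 857 bp on the other autosomes. It was larger on chromosome 14 in each class, and the other autosomes' median lay below the interval of chromosome 14 in all 4. A width of 1200 bp or more was reached by 48 peaks (7.55%), against 4.55% on the other autosomes.

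Along the arm width varied little. Step medians ran from 486 bp in step 7 to 611 bp in steps 2 and 4, and the intervals of all 9 steps overlapped. The dense steps 6 and 9 had medians of 551 and 533 bp. The widest peaks lay near the outer end of the arm. In step 9 a peak at 104094322 to 104096580 was 2259 bp wide with a score of 1078. A second in the same window, at 104028001 to 104030242, was 2242 bp wide with a score of 648, and another at 100942287 to 100944154 covered 1868 bp with 657. The other 2 of the 5 widest were the peaks scoring 3100 in step 2 and 2101 in step 8. Width did not follow score in every case. The widest peak of step 5, at 62030125 to 62031842, covered 1718 bp at a score of only 238, and that of step 6, at 74224870 to 74226562, covered 1693 bp at 357. The widest of step 1, at 21537636 to 21539329, covered 1694 bp with a score of 755. Step 4 was led by 50359032 to 50360749 with 1718 bp and a score of 825. In step 3 the widest peak, at 39735572 to 39736978, covered 1407 bp with a score of 529, and in step 7 the peak at 88851839 to 88852660 covered 822 bp with 335.

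Close peaks were slightly more common than elsewhere, and runs of at least 3 of them more so. A neighbour at most 1 kb away was found for 223 of the 636 peaks, 35.1% (exact Clopper-Pearson 95% interval 31.4% to 38.9%), against 32.0% (31.3% to 32.8%) on the other autosomes. The intervals overlapped, and chromosome 14 ranked 6 of 22 autosomes. Joined at 1 kb, the peaks formed 510 regions, of which 97 held at least 2 peaks and 23 held at least 3. Regions with at least 3 peaks were 4.51% of all (2.88% to 6.69%), against 264 of 11294 or 2.34% on the other autosomes. Only chromosome 21 had a larger share, 7.24%. Of the 23 runs with at least 3 peaks, 19 lay in the 4 dense steps, which held 325 of the 510 regions. Peaks in runs also add to the counts that make a step dense. Step 6 had 7 of these runs, step 9 had 5, step 4 had 4 and step 1 had 3. Steps 2, 5, 7 and 8 had 1 each and step 3 had none.

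The share of close peaks was the same in the 2 densest steps, 51 of 129 or 39.5% (31.0% to 48.5%) in each. It was lowest in step 8 with 25.8% (15.8% to 38.0%) and step 5 with 28.4% (18.0% to 40.7%), and the intervals of all 9 steps overlapped. Within 5 kb of a neighbour lay 57.4% (48.4% to 66.0%) of the peaks of step 9, 47.3% (38.4% to 56.3%) of those of step 6 and 33.3% (22.2% to 46.0%) of those of step 8. The interval of step 9 overlapped that of every step except step 8. For the whole of chromosome 14 this share was 46.5% (42.6% to 50.5%), against 39.7% (38.9% to 40.6%) on the other autosomes. The median distance to the nearest peak was 2.29 kb in step 9, 4.76 kb in step 1 and 10.6 kb in step 6. It was 165 kb in step 7 and 49.1 kb in step 3. Over the chromosome it was 9.94 kb, against 14.4 kb on the other autosomes. Step 6 was denser than step 1, yet its median distance was longer.

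In a run the strongest peak was mostly also the widest, in 72 of 97 runs (74.2%, 64.3% to 82.6%), against 81.4% (79.6% to 83.0%) on the other autosomes. The strongest peak of a run scored 2.31 times the weakest in the median, against 2.04 times on the other autosomes. Gaps inside runs had a median of 124 bp on chromosome 14 and 167 bp elsewhere, and 50 of 126 (39.7%) were at most 100 bp, against 36.4%. The median score of close peaks was 111.2 (96.7 to 130.6) and that of isolated peaks 127.4 (108.9 to 155.6) on chromosome 14, with the same median width of 551 bp. Within the score classes the share of close peaks exceeded that of the other autosomes only in the middle. In classes 2 and 3 close peaks made up 41.8% and 43.3% on chromosome 14, against 36.0% and 34.2% on the other autosomes. In the lowest and the highest class the shares were 31.5% and 25.5%, against 32.0% and 25.9%. No intervals were computed for these shares, and the difference between classes was not tested.

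Runs of 4 or more peaks numbered 3 among the 510 regions of chromosome 14 and 51 among the 11294 regions of the other autosomes. These shares lay nearer to each other than those of runs with at least 3 peaks. The run in step 6, at 75743291 to 75750399, held 7 peaks in 7109 bp, and no other autosome had more than 6 in a run. Its peaks covered 80.6% of its length. The first peak, 1029 bp wide, scored 192 and was set off by a gap of 848 bp. The second was the strongest and the widest, with a score of 396 over 1322 bp. The 5 peaks after it scored 70, 97, 95, 139 and 88, and were separated from each other and from the second by gaps of 4 to 197 bp. The strong part thus lay on the side of the lower coordinates, followed by weaker peaks at short gaps. The nearest peak outside the run was 10.1 kb away.

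The run in step 1, at 21149656 to 21153511, had 4 peaks in 3856 bp. Their scores were 212, 253, 82 and 64, with gaps of 368, 232 and 735 bp between them. As in the longer run, the stronger peaks stood at the lower coordinates. The run in the thin step 7, at 81685562 to 81688160, had 4 peaks in 2599 bp with scores of 59, 125, 144 and 107. Its gaps were 385, 10 and 70 bp, and its strongest peak lay in the middle. It held 4 of the 11 peaks of that step. All 3 runs reached only moderate scores, and none included a peak of 1000 or more.

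**Figure D5:**
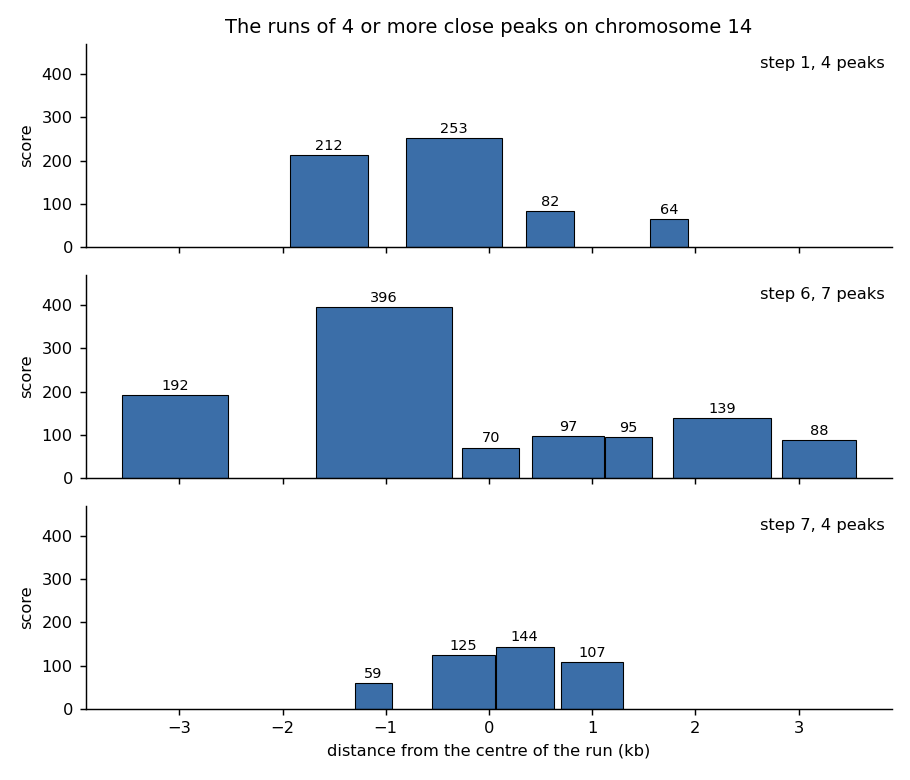
The 3 runs of 4 or more close peaks are drawn by distance from the centre of the run in kb; each bar spans a peak, and its height and number give the authors' score. The run of step 6 is the longest, with its highest score of 396 in the second of 7 peaks.

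Against single autosomes, chromosome 14 shared its wide and strong peaks with chromosomes 7 and 9. The 3 had the largest median widths, 551 bp on chromosome 14, 584 bp on chromosome 7 and 552 bp on chromosome 9. They also had the largest shares of peaks in the top 10% of the list's scores, 13.05% on chromosome 14, 13.97% on chromosome 7 and 13.45% on chromosome 9. Chromosome 5 was nearly level in this share, at 12.95%, with a median width of 501 bp. It also had 3.21% of its peaks at 1000 or more, against 3.14% on chromosome 14. Chromosome 14 was denser than chromosomes 7 and 9, at 7.38 peaks per Mb against 5.96 and 4.98. Chromosome 15, an acrocentric chromosome of like span, had 5.67 peaks per Mb (5.16 to 6.20), a median score of 106.3 and 24.5% close peaks (20.7% to 28.7%), the lowest share of the 22 autosomes. The other acrocentric chromosomes lay on both sides of chromosome 14. Chromosome 13 had 2.20 peaks per Mb and 29.7% close peaks, chromosome 21 had 5.16 per Mb and 39.4%, and chromosome 22 had 10.9 per Mb and 35.1%. These comparisons rest on 1 library and were not tested, and copies of each chromosome in this line were not measured here.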

How the data were processed

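ZFX ChIP-seq in DAOY cells was analysed from 1 peak list. Bowtie2 2.0.0 and hg19 are named, without roles, per the submitters' processing notes. Peak names carry the name MACS; the sources used here give no version, threshold or control for the caller. The authors deposited a score per peak without a stated unit, and starts and ends in bp, with no header; starts were taken as counted from 0.

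Peaks were assigned by midpoint. Steps of the other autosomes began at the whole Mb below their first peak, and last steps under 5 Mb were left out. Shares have exact Clopper-Pearson, counts exact Poisson and medians order-statistic 95% intervals. The members, regions and limits were chosen with earlier results of these data known. Regions named were the 2 highest scores and the widest peak per step, the 5 widest peaks, runs of 4 or more peaks, the 2 richest windows of dense steps (also a further one in step 1, chosen after its value was seen) and the 3 longest stretches without a peak (also the next). Of 7 planned results, 2 needed genes or sequence on hg19 and were not run. The functions were tested on simulated data. Computation used pandas 2.3.3, numpy 2.4.6 and scipy 1.17.1 under Python 3.11.15, with matplotlib 3.10.9 for figures.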

Additional observations from a re-analysis of the deposited data

How the results depend on the processing

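No paired analysis was possible because only 1 sample has peaks. For 5 results 27 alternatives were run, 9 of them chosen after seeing the data; 18 stayed within the interval of the value or 1.5 times the count, and none turned a direction. A kept count of dense steps could hold other steps. Steps 6 and 9 passed in all alternatives that kept the steps from 19 Mb. Step 1 did not pass when close peaks were joined, without the richest window of each step, or with the longest stretch without a peak left out of every autosome. It passed when measured from the first peak. The density ratio rose to 1.64 without chromosomes 17, 19 and 22, which are dense themselves. Dense steps numbered 9 of 18 with 5 Mb steps (21.1% of steps elsewhere). They numbered 7 of 9 against the median step of the other autosomes (32.0% elsewhere) and 2 at 2 times the mean. These changes in count follow from the construction, but the place of the calls also depended on step size. With 5 Mb steps, 34 to 39, 64 to 69 and 89 to 94 Mb passed, all outside steps 1, 4, 6 and 9. Within steps 1 and 4 only 19 to 24 and 49 to 54 Mb passed, whereas both parts of steps 6 and 9 did. The calls of steps 1 and 4 depend on the boundaries. With steps from 14 Mb, 3 passed (64 to 74, 74 to 84 and 94 to 104 Mb), none of which overlaps step 1 or 4. The first of that cut, 14 to 24 Mb, includes the part below 19 Mb without a peak, and a last piece under 5 Mb was left out. With steps from 20 Mb, 5 passed (from 20, 50, 60, 70 and 100 Mb). The median width was 656 bp for joined peaks (572 bp elsewhere) and 761 bp above the median score (686 bp elsewhere). Close peaks made up 29.4% at 500 bp (27.2% elsewhere), 46.5% at 5 kb (39.7% elsewhere) and 21.4% with both peaks above the median score (15.4% elsewhere). The alternatives for genes and for sequence were not run, as both need hg19. Depth is unknown, so missed weak sites cannot be counted.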
